A study of Homo sapiens with 4 samples.

Results

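The regions described here are promoter peaks of H3K27ac, acetylation of histone H3 at lysine 27, that were called after SKP2 knockdown and not in control cells. Members were selected on the peak calls themselves: a knockdown H3K27ac peak with its summit within 2 kb of the transcription start site (TSS) of a protein-coding gene, overlapped by no control H3K27ac peak and by no MYOD peak of either arm. Of 38457 knockdown H3K27ac peaks on chromosomes 1 to 22, X and Y, 11999 had their summit in such a promoter window and 3655 were members, at 3250 genes. They fell into a pair of classes. At 2081 members, which lay at 1766 genes, no control peak touched the 2 kb on either side of the TSS (unaccompanied members). At the other 1574 members, at 1484 genes, another control peak was present in that window (accompanied members).

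The chromatin came from RD, a permanent cell line grown from a fusion-negative rhabdomyosarcoma (FN-RMS), which is a childhood tumor of the muscle lineage. According to the paper RD carries mutated p53. Control cells carried a lentiviral non-targeting short hairpin RNA (shSCR) and are labelled WT, and knockdown cells carried a hairpin against SKP2 (shSKP2), the substrate receptor of an SCF ubiquitin ligase. According to the methods the knockdown arm used a single hairpin, so the values belong to that hairpin as well as to the loss of SKP2. H3K27ac and MYOD were each profiled once per arm, so that each of the 4 groups holds 1 library. No difference between arms could be tested, there is no p-value, and the 95% intervals below cover counting error over peaks or promoters only. Peak lists hold no RNA or protein measurement, so neither the knockdown nor the output of any gene can be read from them.

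H3K27ac is deposited mainly by the acetyltransferases p300 and CBP and marks nucleosomes next to active promoters and enhancers. The TSS itself is usually free of nucleosomes, so the mark lies on both flanks of it. Many promoters of broadly used genes sit in CpG islands, stretches in which the dinucleotide CpG is common and mostly unmethylated, whereas many tissue-specific promoters, those of muscle structural genes included, hold few CpGs and often a TATA box.

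Both kinds of promoter occur among the members. The 150 bases that end just before the TSS are shown for 8 of them to make the difference visible, in hg38, 5′ to 3′ on the coding strand, with each CpG in capitals. The stress regulator SESN2 (chr1:28259368-28259517, plus strand), the antiproliferative gene BTG2 (chr1:203305369-203305518, plus strand), the autophagy gene ATG14 (chr14:55411831-55411980, minus strand) and the early response factor EGR2 (chr10:62816367-62816516, minus strand) are CpG-rich and unaccompanied. The titin gene TTN (chr2:178807424-178807573, minus strand) and MYBPH (chr1:203175827-203175976, minus strand), both sarcomere genes, are CpG-poor and unaccompanied. The myogenic regulator MYOG (chr1:203086013-203086162, minus strand) and the CDK inhibitor gene CDKN1B (chr12:12717218-12717367, plus strand) are accompanied.
SESN2: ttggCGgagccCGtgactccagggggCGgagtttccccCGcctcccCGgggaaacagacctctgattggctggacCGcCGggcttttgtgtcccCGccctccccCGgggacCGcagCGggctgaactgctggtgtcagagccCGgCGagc
BTG2: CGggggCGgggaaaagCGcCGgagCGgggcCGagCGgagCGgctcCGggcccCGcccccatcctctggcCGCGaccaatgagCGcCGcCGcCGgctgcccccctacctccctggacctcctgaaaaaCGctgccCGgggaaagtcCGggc
ATG14: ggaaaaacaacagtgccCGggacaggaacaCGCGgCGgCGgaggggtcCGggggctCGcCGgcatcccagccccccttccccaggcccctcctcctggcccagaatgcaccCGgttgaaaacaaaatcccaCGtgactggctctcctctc
EGR2: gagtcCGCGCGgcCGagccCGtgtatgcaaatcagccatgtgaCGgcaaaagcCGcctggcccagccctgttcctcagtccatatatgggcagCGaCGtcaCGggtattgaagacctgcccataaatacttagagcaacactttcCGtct
TTN: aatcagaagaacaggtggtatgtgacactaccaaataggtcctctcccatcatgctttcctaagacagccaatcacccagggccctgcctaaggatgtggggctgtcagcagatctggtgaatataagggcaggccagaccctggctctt
MYBPH: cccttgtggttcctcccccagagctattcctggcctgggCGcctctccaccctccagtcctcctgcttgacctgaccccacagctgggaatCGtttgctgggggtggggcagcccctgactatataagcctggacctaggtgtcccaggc
MYOG: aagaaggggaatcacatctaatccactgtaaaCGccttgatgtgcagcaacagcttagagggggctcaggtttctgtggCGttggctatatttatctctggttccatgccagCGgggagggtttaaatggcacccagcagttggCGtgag
CDKN1B: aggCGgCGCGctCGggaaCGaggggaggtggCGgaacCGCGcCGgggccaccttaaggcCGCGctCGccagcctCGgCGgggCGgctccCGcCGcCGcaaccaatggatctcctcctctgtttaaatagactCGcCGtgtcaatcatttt
These stretches hold 13 CpGs in SESN2, 19 in BTG2, 10 in ATG14 and 11 in EGR2, against 0 in TTN, 2 in MYBPH, 4 in MYOG and 20 in CDKN1B. Over the 500 bp on each side of the TSS the ratio of observed to expected CpGs was 0.866 in SESN2 and 0.928 in CDKN1B, against 0.209 in TTN and 0.152 in MYBPH.

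The members made up a sizeable share of the promoter peaks of the knockdown list. Among the 10297 knockdown promoter peaks free of MYOD, 3655 (35.5%) were in the knockdown list alone and 6642 were shared, that is, overlapped by a control peak. Under the mirrored rule, 591 of 8219 control promoter peaks (7.19%) were in the control list alone, and 145 of these lay at a TSS with no knockdown peak within 2 kb. The knockdown list is the longer one, with 38457 peaks against 25356. When it was held to its 25356 strongest peaks, 1813 of 7871 knockdown promoter peaks (23%) and 1167 of 8219 control promoter peaks (14.2%) were in their own list alone, so both the number of members and the contrast with the mirrored rule depended on list length. At a −log10 p of 10 or more 1371 members were left. A further 313 knockdown-only promoter peaks overlapped a MYOD peak and are not members. Of 20033 protein-coding genes, 8151 had an H3K27ac peak within 2 kb of the TSS in both lists, 2135 in the knockdown list only, 161 in the control list only and 9586 in neither. Unaccompanied members were held by 8.82% of all genes and by 15.1% of the 11721 genes without a control peak, and accompanied members by 7.41% of all genes. These shares follow from the rule and are the background for the lists below.

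The lists do not give the sequencing depth. The lowest background recovered from each list was 1.75 fragments in the control and 1.61 in the knockdown library, but at the 6642 shared promoter peaks the control's summit held a median of 0.647 times the fragments of the knockdown's (quartiles 0.535 and 0.789) over a local background 0.742 times as high (0.657 and 0.857). The fold over background at these shared peaks had a median of 4.75 in the control and 5.89 in the knockdown. Where a knockdown peak overlapped several control peaks, the first by position was used, so these control values may understate the strongest. By this measure promoters marked in both arms mostly carried more fragments as well in the knockdown library. How far this moved the number of members was not tested. Where the control list has no peak, the mark may still have been present below the threshold of the peak caller.

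Most members were weak and narrow peaks. The fold of the summit over the local background had a median of 4.47 at unaccompanied members (quartiles 3.82 and 5.34) and of 3.67 at accompanied ones (3.12 and 4.41). The number of fragments at the summit had a median of 19, 26 and 41 at unaccompanied, accompanied and shared promoter peaks, and the width a median of 396, 346 and 741 bp. Accompanied members held more fragments than unaccompanied ones, and their local background was higher too, with medians of 5.96 and 3.25 fragments. A −log10 p of 10 or more was reached by 38.1% of unaccompanied, 36.8% of accompanied and 86.2% of shared peaks. Only 133 members reached 20, and 117 lay under 5, the threshold the methods state. All of these values come from the list that chose the members, and they are a description.

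**Figure D1:**
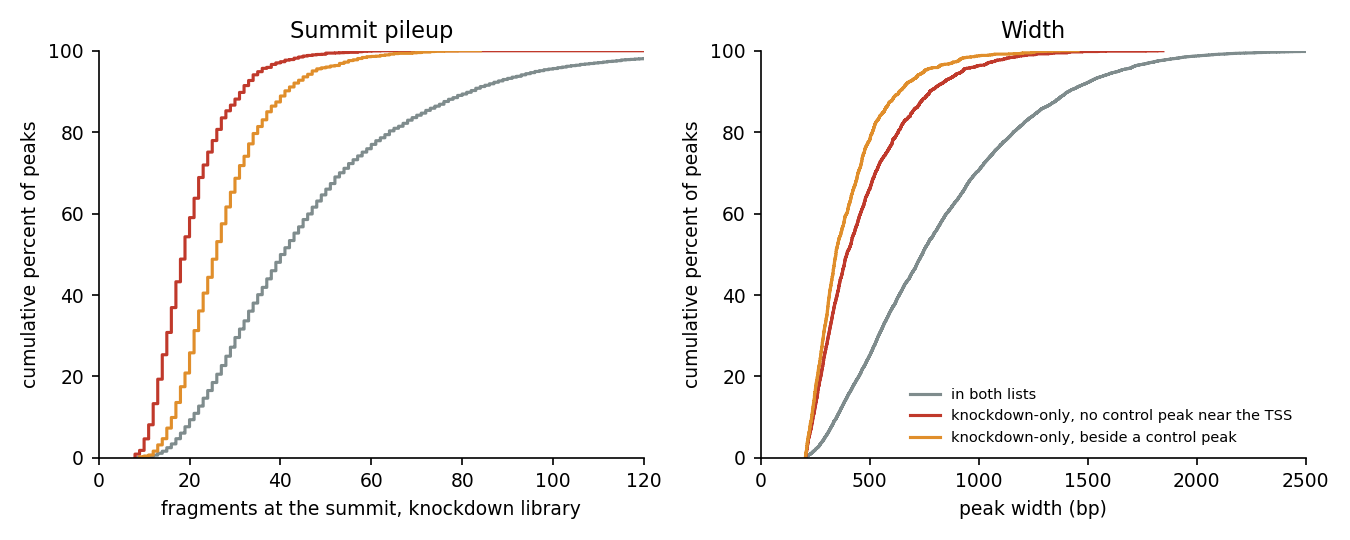
Cumulative percent of knockdown promoter peaks by fragments at the summit (left) and by width in bp (right), for members without and with a control peak near the TSS and for peaks in both lists, 1 knockdown library. At 50% the curves cross 19, 26 and 41 fragments and 396, 346 and 741 bp in that order.

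SESN2, which encodes sestrin 2, an inhibitor of mTORC1 signalling induced by p53 and by the stress factor ATF4, stood apart from all other members in fragments and −log10 p. Its peak (chr1:28258366-28259686, hg38, 1321 bp, summit 71 bp upstream of the TSS) held 190 fragments over a background of 25.5, which is 7.21-fold with a −log10 p of 96.7. This background was also the highest of all unaccompanied members, whose median was 3.25 fragments. No other unaccompanied member exceeded 62 fragments or a −log10 p of 40.8, and the control peak closest to SESN2 lay 11.3 kb away with 16 fragments. The next in order was ACTR5, a subunit of the INO80 chromatin remodeler (10.6-fold, 54 fragments over 4.17, −log10 p 40.8). WDR11, a protein of endosome to Golgi transport, followed with 7.53-fold, and the triglyceride synthesis enzyme gene DGAT2 had the highest fold of all members, 12.6, with 38 fragments over a background of 2.10. The remaining top 15 unaccompanied genes were TBC1D22A, ZNF493, ADCY2 (adenylate cyclase 2), C16orf46, CHAC1 (which degrades glutathione and is induced through ATF4), FANCA (a Fanconi anemia DNA repair protein), HYPK, GOLPH3L, RNF149, ZNF117 and ZNF17, at 6.98 to 10.4-fold with 41 to 59 fragments. Their nearest control peaks were 7.33 kb away at TBC1D22A and 240.3 kb away at ADCY2, which were the extremes of these genes.

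The highest-scoring accompanied members lay at 10 genes of varied function. EIF5B, a translation initiation factor, led with 6.72-fold and 73 fragments in a peak 318 bp from a control peak of 30 fragments. TYW1B, of the wybutosine pathway of tRNA modification, had 5.88-fold, and the angiogenic growth factor gene VEGFA had 6.88-fold in intron 1, 1986 bp downstream of the TSS. KIFC1, a mitotic kinesin, followed with 6.11-fold, and HYAL3, CCAR1, CCDC167, CTPS1 (CTP synthase), XRCC5 (the Ku80 subunit of DNA end joining) and RAB1A with 5.37 to 9.38-fold.

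Broad members were uncommon. A width of 1000 bp or more was found for 77 unaccompanied and 21 accompanied members, against 1955 shared peaks. The widest lay at TOR3A (1845 bp, 4.95-fold), at a gene without a symbol, ENSG00000268655 (1820 bp), at ZNF148 (1765 bp), at the mitochondrial ribosomal protein gene MRPL20 (1581 bp) and at the centriole gene CEP164 (1548 bp), all unaccompanied. Most genes, 2861, held 1 member, 373 held 2 and 16 held 3. Among the last were the pseudokinase gene TRIB2, with 47 to 54 fragments at its 3 accompanied members, the adiponectin receptor gene ADIPOR1, CCDC171, METTL9 and ESYT1. Of the 301 genes with 2 or more unaccompanied members, 234 held them on both sides of the TSS.

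Summits avoided the TSS itself and lay more often downstream of it. Only 4.23% of unaccompanied summits were within 100 bp of the TSS. The fullest 100 bp stretch began 100 bp downstream and held 370 of 2081 unaccompanied summits (17.8%), 11.7% of accompanied and 1529 of 6642 shared ones. Downstream summits made up 65.4% of unaccompanied (63.4 to 67.5%), 58.2% of accompanied (55.7 to 60.6%) and 60.4% of shared peaks (59.2 to 61.5%). The difference between unaccompanied and shared peaks was 5.09 percentage points (Newcombe interval 2.71 to 7.43). It was 1.53 (−2.14 to 5.12) when members and shared peaks alike were held to a −log10 p of 10 or more. With the TSSs of all protein-coding transcripts it was −0.12 (−2.32 to 2.06), so it depended on peak strength and on the choice of TSS. By annotation 43.2% of unaccompanied summits lay in intron 1, 34.6% upstream of the transcript, 10.6% in the 5′ UTR and 9.37% in coding sequence.

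Accompanied members mostly faced their control peak across the TSS. At 1123 of 1574 members (71.3%, 69.1 to 73.5%) the summits of the member and of the nearest control peak lay on opposite sides, with the member downstream and the control peak upstream at 606 and the reverse at 517. The nearest control peak was a median of 399 bp away and held a median of 24 fragments, and 88.6% of these control peaks were overlapped by a knockdown peak, so the flank marked in the control mostly remained marked. Since a member cannot overlap the control peak beside it, the rule itself limits where accompanied members can lie. CDKN1B, which encodes p27Kip1, shows the arrangement: the member upstream of the TSS (chr12:12716179-12717180, 3.23-fold, 46 fragments) lay 234 bp from the control peak downstream (2.66-fold, 35 fragments), which was overlapped by a knockdown peak of 3.65-fold and 56 fragments.

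**Figure D2:**
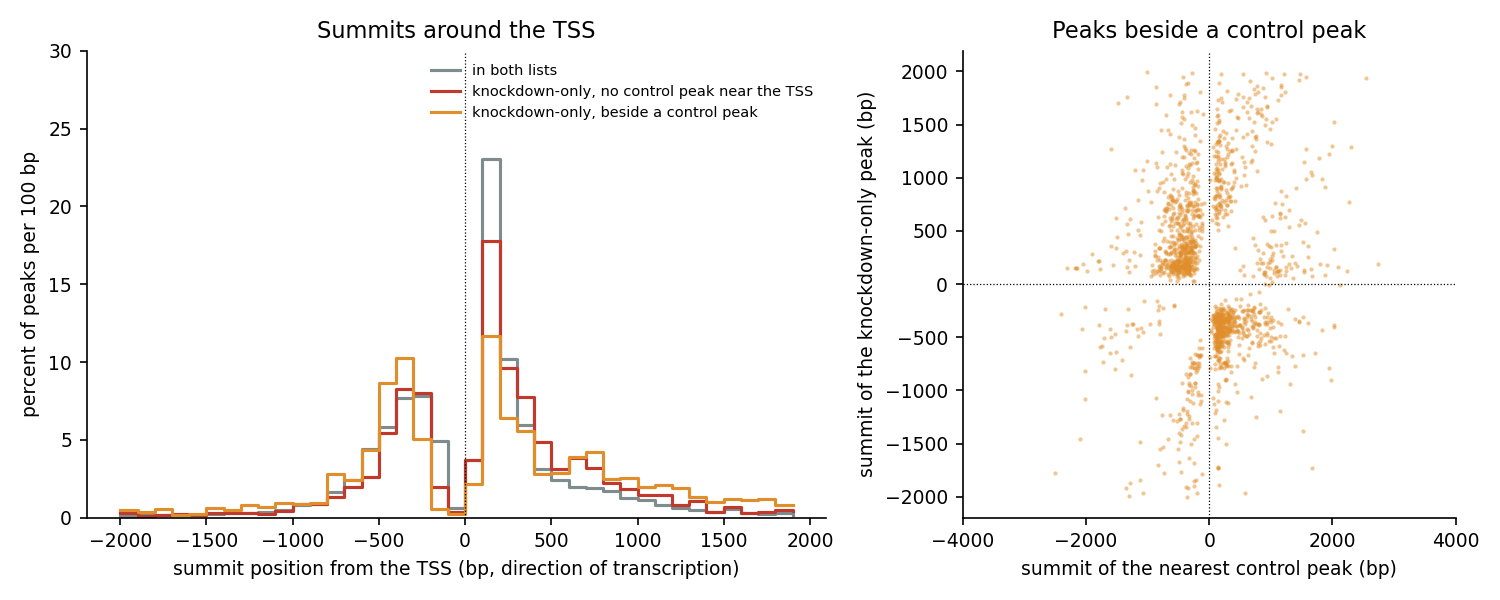
Left, summit position from the TSS in bp along the direction of transcription, as percent of peaks per 100 bp, for the 3 classes of knockdown promoter peaks. Right, each accompanied member as a point, with the summit of its nearest control peak on the x axis and its own summit on the y axis, both in bp from the TSS. The gap at the TSS is seen in all classes, and 71.3% of the points lie in the upper left and lower right of the plot, where the summits are on opposite sides of the TSS.

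Unaccompanied members were found at CpG-rich promoters. A promoter was called CpG-rich when the 500 bp on each side of the TSS had a GC content of at least 50% and a ratio of observed to expected CpGs of at least 0.6. This held for 84.8% of the 1766 unaccompanied promoters (Wilson interval 83.0 to 86.4%), 89.8% of accompanied, 89.2% of shared and 40.5% of the promoters unmarked in both lists, beside 64.8% of all promoters. The difference between unaccompanied and unmarked promoters was 44.3 percentage points (42.3 to 46.1) and stayed between 42.1 and 44.9 under all alternatives tried. Seen from the other side, 26.5% of the 5653 CpG-rich promoters without a control peak held a member, against 4.43% of the 6068 CpG-poor ones, and the interval of the difference was 20.8 to 23.3 points. Unaccompanied promoters were CpG-rich less often than shared ones by 4.41 points (2.57 to 6.35), though among promoters whose strongest knockdown peak had a −log10 p under 10 the difference was −1.67 (−5.39 to 2.38), and with the TSSs of all protein-coding transcripts it was −12.1 (−14.2 to −10.1).

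The 269 CpG-poor unaccompanied promoters included some strong members. ZNF493 led them with 10.4-fold and a CpG ratio of 0.508, followed by GOLPH3L (8.21-fold, ratio 0.412) and ZNF117 (6.98-fold, ratio 0.183). TPM3, which encodes a tropomyosin of slow muscle and of non-muscle cells, had 44 fragments and 7.07-fold at a ratio of 0.069. ASB18 and CALCRL, the latter a receptor for calcitonin gene-related peptide, were among them too, with 7.14 and 6.30-fold.

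**Figure D3:**
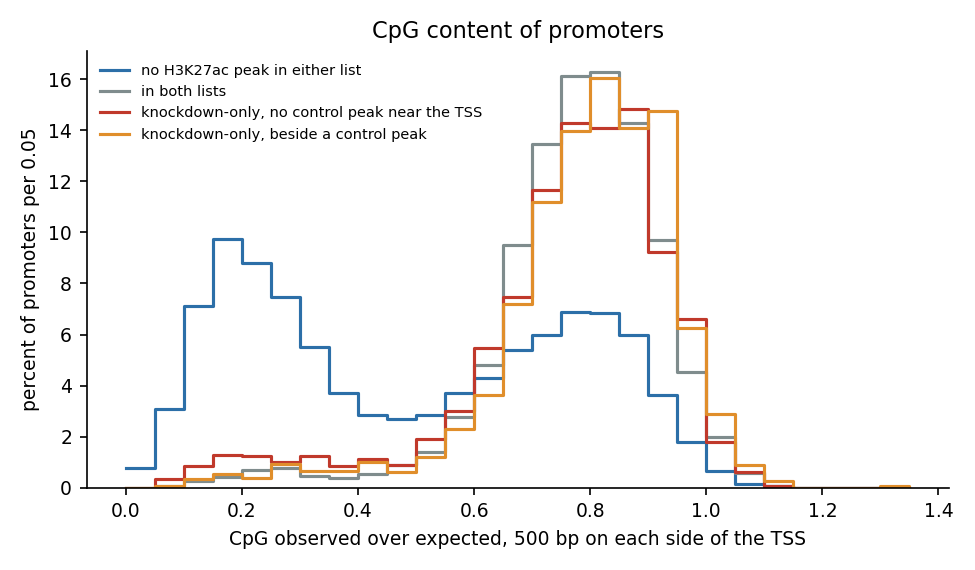
Ratio of observed to expected CpGs in the 500 bp on each side of the TSS (x axis, bins of 0.05) as percent of promoters in each class (y axis). Marked classes form a single hump at high ratios, with class medians of 0.791, 0.817 and 0.792 for unaccompanied, accompanied and shared promoters, while promoters unmarked in both lists spread over low and high ratios with a median of 0.465.

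Short motifs in the core promoter separated the unaccompanied from the shared promoters in a few cases. Letters were searched on both strands from 250 bp before to 50 bp after the TSS, no motif contains another, and a match is a description of the sequence and no sign of binding. The GC box GGGCGG, recognised by SP and KLF factors, was in 77.7% of unaccompanied, 72.7% of shared, 47.2% of unmarked and 61.3% of all promoters. The ETS motif CCGGAAG was in 300 of 1766 unaccompanied promoters (15.3 to 18.8%) and in 24.8% of shared, 5.07% of unmarked and 14.1% of all promoters, and the YY1 motif AAGATGGC in 3.57, 8.14, 1.15 and 4.04% in the same order. Unaccompanied promoters thus differed from shared ones by 5.03 points for the GC box (2.68 to 7.30), by −7.77 for ETS (−9.86 to −5.60) and by −4.57 for YY1 (−5.68 to −3.35). Within CpG-rich promoters the differences from shared ones were 7.38, −7.15 and −4.53. The GC box did not set unaccompanied apart from unmarked promoters there, with 84.1 and 84.0%. ETS was in 18.3% of CpG-rich unaccompanied and 8.34% of CpG-rich unmarked promoters, and YY1 in 3.74 and 1.29%.

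Part of this followed peak strength. Among promoters whose strongest knockdown peak had a −log10 p under 10, the ETS motif was in 14.1% of unaccompanied and 74 of 463 shared promoters, a difference of −1.85 with an interval from −5.99 to 1.962, and the intervals for YY1 (−3.82 to 0.30) and the GC box (−2.49 to 6.74) also included 0. At 10 or more the differences were −4.87 (−7.91 to −1.57) for ETS, −3.41 (−5.03 to −1.43) for YY1 and 4.40 (0.994 to 7.58) for the GC box. Smaller differences from shared promoters were found for the E2F motif TTTCCCGC (2.27 against 3.51%, −2.06 to −0.308 points), for the palindrome CTCGCGAG (1.64 against 2.68%, −1.74 to −0.221 points) and for the E-box CAGCTG, which MYOD prefers (16.3 against 14.1%, beside 17.7% of all promoters). The difference for CAGCTG was 2.15 points (0.214 to 4.18), and its interval included 0 within CpG-rich promoters and within either range of strength. The interval for CTCGCGAG also included 0 within either range (−3.16 to 0.399 under 10 and −1.94 to 0.168 at 10 or more), and that for E2F did so at 10 or more (−2.04 to 0.450). For TATAAA, the MYC E-box CACGTG, the AP-1 motif TGANTCA, the cAMP response element TGACGTCA, the C/EBP-ATF motif TGATGCAA, CCAAT and the NRF1 core TGCGCATG the interval of the difference between unaccompanied and shared promoters included 0 when all promoters were compared. For 3 of these motifs a subset gave an interval free of 0. Within CpG-rich promoters TATAAA was in 2.74% of unaccompanied and 4.24% of shared ones (−2.46 to −0.391 points), and in the weaker range of peaks the cAMP response element was in 2.67 and 5.18% (−5.07 to −0.463) and the C/EBP-ATF motif in 0 of 1012 and 3 of 463 promoters (−1.89 to −0.0773). Over all promoters TATAAA was in 4.81% of unaccompanied, 5.10% of shared and 14.8% of unmarked promoters.

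**Figure D4:**
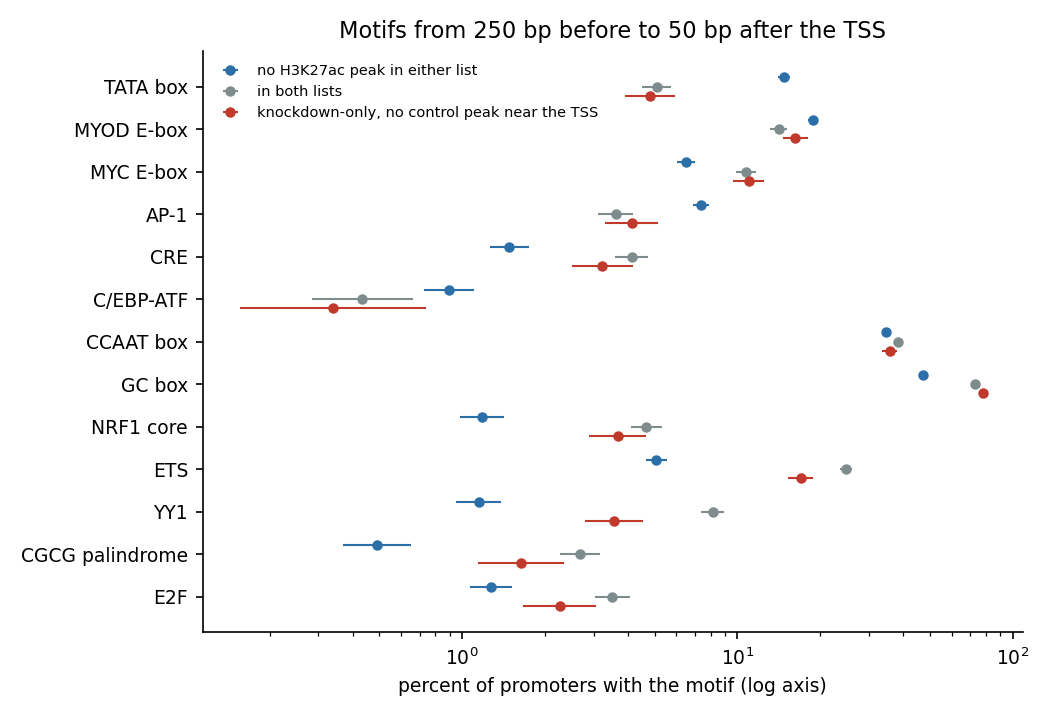
Percent of promoters that hold each motif (log axis) with Wilson 95% intervals, for promoters unmarked in both lists (9586), shared (4842) and unaccompanied (1766). Unaccompanied promoters lie between the other classes for ETS and YY1, above both for the GC box and near shared promoters for TATA, the MYC E-box and AP-1. Within CpG-rich promoters, not shown, the GC box was in 84.1% of unaccompanied and 84.0% of unmarked ones.

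A close neighbour on the opposite strand was less common at the members than at shared promoters. A protein-coding TSS on the opposite strand lay within 1 kb at 6.85% of unaccompanied (5.76 to 8.13%), 11.7% of accompanied, 14.2% of shared and 1.86% of unmarked promoters. Unaccompanied promoters differed from shared ones by −7.32 points (−8.80 to −5.72), and by −8.57 and −7.88 in the weaker and stronger range of peaks. A control peak at a close neighbour also moves a promoter out of the unaccompanied class, so the rule bears on this share. The transcripts of unaccompanied genes spanned a median of 31.6 kb, those of shared genes 27.2 kb and those of unmarked genes 17.2 kb. Members do not overlap MYOD peaks by the rule, but a MYOD peak of either list lay within 10 kb of 19.0% of unaccompanied (17.4 to 20.8%), 27.1% of accompanied and 17.5% of shared peaks, where the same exclusion applied. Accompanied members differed from shared peaks by 9.63 points (7.30 to 12.1) and unaccompanied ones by 1.53 (−0.342 to 3.49). Shared peaks were wider, with a median of 741 bp against 346 bp at accompanied members, so the exclusion need not act alike on them. How far it made these differences was not tested. By chromosome the share of genes with an unaccompanied member ran from 7.21% on chromosome 11 to 14.2% on chromosome 13.

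Gene lists were read against the 8.82% of all genes with an unaccompanied and the 7.41% with an accompanied member. Autophagy and lysosome genes had the highest share of the 21 lists, with 10 of 29 unaccompanied (34.5%, 19.9 to 52.7%) and 1 accompanied, WIPI1. These 10 were among only 15 list genes without a control peak at the TSS. They comprised TFE3 (5.24-fold, 35 fragments), a transcription factor of lysosomal genes, ULK1 (5.22-fold), the kinase that starts autophagy, ATG14 (6.79-fold, 28 fragments) and WIPI2 of autophagosome formation, MAP1LC3B, which encodes LC3B of the autophagosome membrane, the lysosomal proteases CTSB, CTSD and CTSL, the lysosomal membrane protein LAMP1 and the lysosomal growth factor precursor GRN (5.55-fold). Their highest-scoring members held 10 to 35 fragments, and 6 of the 10 reached a −log10 p of 10. The lists were drawn up with earlier results of these data known and are no independent test.

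p53 target genes had 6 of 29 unaccompanied (20.7%, 9.85 to 38.4%) and 4 accompanied. Beside SESN2 the unaccompanied ones were BTG2 (33 fragments over 3.25), AEN (a p53-induced nuclease), TP53INP1, ZMAT3 and PHLDA3 (an inhibitor of AKT), and the accompanied ones BAX (6.03-fold), a pore-forming apoptosis protein, TNFRSF10B, PLK2 and PPM1D. Of the 6 unaccompanied ones 2, SESN2 and BTG2, reached a −log10 p of 10. The paper describes RD cells as p53-mutated, and whether p53 acted at these genes was not tested. RAS-ERK feedback and AP-1 genes had 4 of 26 unaccompanied, EGR2 (9.68-fold, 28 fragments over 1.99), the ERK phosphatase DUSP5, FOSL1 and JUNB. Their 7 accompanied genes (26.9%, 13.7 to 46.1%) were FOSB (7.16-fold), JUN, FOSL2, ETV1, ETV4, SPRY2 and SPRED3. The integrated stress and unfolded protein response list had 2 of 25 unaccompanied, CHAC1 (9.19-fold, 44 fragments) and TRIB3, and 5 accompanied, with EDEM1, which directs misfolded glycoproteins to degradation, the strongest at 5.63-fold.

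Muscle genes were counted in 4 lists. Of 40 sarcomere and contraction genes, 6 were unaccompanied (7.06 to 29.1%), namely TPM3, TTN (4.56-fold, 20 fragments in intron 1), MYBPH, ACTC1 (cardiac actin), MYOM1 and MYOM2, and TNNI1 was accompanied. Of these 6 only TPM3 reached a −log10 p of 10. Another 22 of the 40 had no H3K27ac peak within 2 kb in either list. Of 24 myogenic regulators MEF2A (4.30-fold), MEF2C (4.84-fold) and SRF (2.73-fold) were unaccompanied, none of them at a −log10 p of 10, and MYOG, TCF3 and TCF4 were among the accompanied ones. In the fusion, neuromuscular junction and calcium list 1 of 29 was unaccompanied, SLN, which encodes the calcium pump inhibitor sarcolipin (3.77-fold, 9 fragments), and the calcium pump gene ATP2A1 accompanied. Muscle energy metabolism had 3 of 25 unaccompanied, the phosphofructokinase gene PFKM (6.56-fold), the mitochondrial coactivator gene PPARGC1B (4.49-fold) and ACADVL, and 3 accompanied.

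Cell cycle genes held more accompanied than unaccompanied members in the replication list, where 27 of 31 genes had a control peak. In the CDK inhibitor, pocket protein and cyclin list CCNE1 (5.41-fold), CCNE2 and CCND2 of 20 genes were unaccompanied and CDKN1B, RB1 and CDK6 accompanied. DNA replication and mitosis had 2 of 31 unaccompanied, MCM3 and PLK1, and 7 accompanied (22.6%, 11.4 to 39.8%), with KIF11 (4.41-fold), a kinesin of the bipolar spindle, the highest-scoring. Only 4 genes of this list had no control peak and could be unaccompanied. MCM3 and PLK1 were 50% of these, against 15.1% over all genes without a control peak. Among the 18 genes of the SCF list, SKP2 and UBA3 were unaccompanied and CUL1, RBX1 and CDC34 accompanied. Extracellular matrix and adhesion had 4 of 32 in each class, with COL6A1 (4.94-fold) and CCN1 the highest-scoring unaccompanied genes. Stemness and inhibitors of differentiation had 1 of 27 unaccompanied (ZEB2) and 5 accompanied, among them HMGA1 (4.70-fold) and SNAI2. Interferon response had 1 of 34 unaccompanied (NLRC5) and 2 accompanied, and senescence 1 of 25 (TIMP1) and 2 accompanied. Of 20 housekeeping genes 0 were unaccompanied and 19 had a control peak, and GAPDH and ACTB were accompanied.

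Markers of other cell types held 3 member genes in all. Cardiac and smooth muscle markers had 1 of 15 (SMTN, 5.68-fold, 34 fragments), neuronal and glial markers 1 of 17 (MAP2, 4.27-fold), epithelial and liver markers 1 of 15 (KRT8, 3.92-fold), and adipocyte, cartilage and bone markers as well as blood and endothelial markers 0 of 15 each (Wilson upper bound 20.4%). No marker of these 5 lists had an accompanied member.

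Gene families were grouped by symbol. ZNF genes, mostly zinc finger repressors, had 72 of 515 unaccompanied (14.0%, 11.3 to 17.2%), or 42.6% of the 169 without a control peak, against 15.1% over all genes. ZNF493, ZNF117, ZNF17 (7.19-fold) and ZNF780B (7.98-fold) were the highest-scoring unaccompanied ones. The mitochondrial ribosomal protein genes had 8 of 78, which were 8 of the 9 without a control peak, and MRPL52 (7.10-fold), MRPL28 and MRPL20 led them. Complex I genes had 5 of 48, or 5 of the 7 without a control peak. F-box genes had 10 of 63 (15.9%, 8.86 to 26.8%), TMEM genes 30 of 238 (12.6%, 8.97 to 17.4%), HOX genes 5 of 39, with HOXA11 (57 fragments) and HOXA7 (41 fragments) in front, and SLC genes 35 of 374 (9.36%). Cytosolic ribosomal protein genes had 1 of 81, RPL8 (4.85-fold), with 76 already marked in the control, proteasome genes 2 of 50 and histone genes 6 of 79. Olfactory receptor genes had 0 of 416 (Wilson upper bound 0.915%), keratin genes 1 of 55 and protocadherin genes 2 of 66. Zinc finger, ribosomal protein and histone genes and TYW1B have close copies in the genome, and how reads that map to several places were treated is not given in the sources used here.

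**Figure D5:**
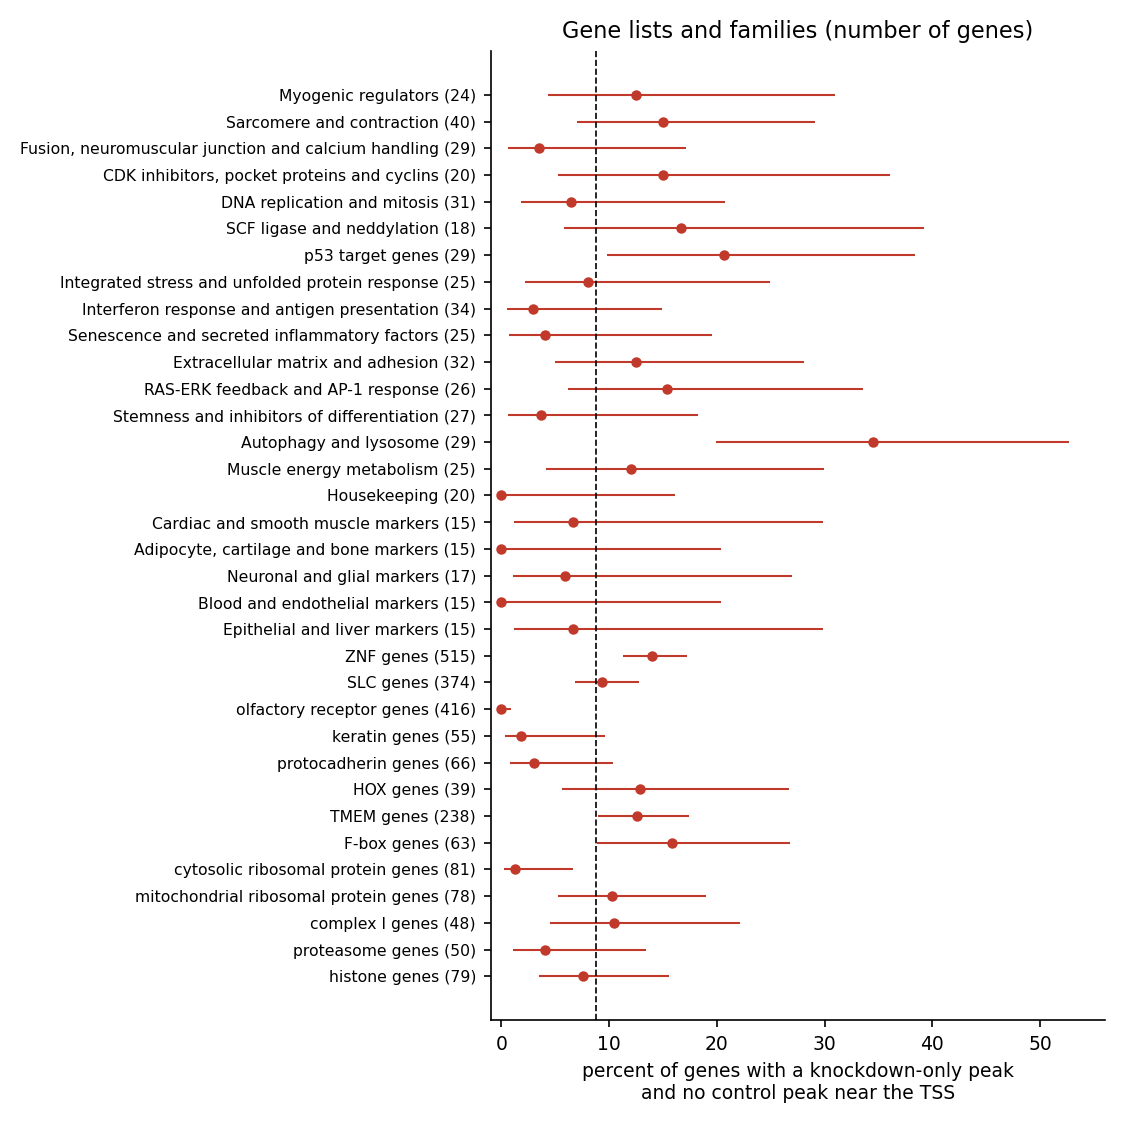
Percent of the genes of each list or family (number of genes in brackets) with an unaccompanied member, with Wilson 95% intervals, and the share over all protein-coding genes, 8.82%, as a dashed line. Autophagy and lysosome, p53 target and ZNF genes have intervals above the line, counted over members of any strength (6 of the 10 autophagy and 2 of the 6 p53 genes reach a −log10 p of 10). The intervals of TMEM and F-box genes begin just above it, and olfactory receptor and cytosolic ribosomal protein genes have intervals below it. Of the 81 cytosolic ribosomal protein genes 76 had a control peak and could not be unaccompanied. The lists were drawn up with earlier results of these data known, so a place above or below the line is no test.

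The loci followed by the study fell into different classes. SKP2 itself was classed as unaccompanied. Its member lay in the 5′ UTR of exon 1 (chr5:36152190-36152409, 2.88-fold, 45 fragments, −log10 p 10.0), and a control peak of 37 fragments lay 3.35 kb away, outside the promoter window. This summit had 2 protein-coding TSSs within 2 kb, so the peak cannot be given to SKP2 alone. Its local background was above the median of unaccompanied members, 3.25 fragments. The paper reports H3K27ac in RD cells at an intronic SKP2 region that contacts the promoter. Whether the SKP2 promoter was newly marked was not tested. MYBPH, which encodes a myosin-binding protein, was unaccompanied with members near the edges of the window, at −1959 bp from the TSS (3.23-fold, 30 fragments) and 1675 bp downstream (2.68-fold, 27 fragments). The downstream member lay 190 bp from a MYOD peak in intron 3. MYOG was accompanied: its member lay in coding sequence of exon 1 (chr1:203085651-203085931, 2.87-fold, 42 fragments), 527 bp from the control peak (46 fragments) and 20 bp from a MYOD peak. At MYOD1 the promoter peaks were shared, with 28 fragments in the control (4.61-fold) and fewer, 23 and 24, in the knockdown library (3.63 and 4.05-fold). At CDKN1A, which encodes p21Cip1, the knockdown-only promoter peak (5.13-fold, 44 fragments) overlapped MYOD peaks of both arms and is therefore no member. Another control H3K27ac peak (2.73-fold, 17 fragments) lay in the same promoter window. MYL1, MYH2 and CDKN1C had no H3K27ac peak within 2 kb of the canonical TSS in either list. The paper reports more H3K27ac at MYOD peaks in the MYL1 gene region after knockdown, and peaks farther from this TSS are not described here.

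At the 2 kb limit the peaks on either side had similar folds. Just inside the 2 kb limit lay the members of MCM5 (1999 bp from the TSS, 4.66-fold) and MAP4K4 (1997 bp, 3.31-fold), and just outside it peaks near ZSWIM6 (2004 bp, 3.44-fold) and TNFRSF19 (2005 bp, 3.54-fold). The members closest to a control peak, at CSRNP2 (3.92-fold) and NECAB3 (3.29-fold), were 5 bp from it. The shared peaks with the least overlap, at PTPRK (7.49-fold, −log10 p 44.1) and FAM171A1 (3.45-fold, −log10 p 4.32), overlapped their control peak by 1 and 2 bp, so a strong peak can count as shared through 1 bp.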

How the data were processed

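The data were 4 peak lists from ChIP-seq of RD cells, H3K27ac and MYOD in shSCR and shSKP2 cells, 1 library each, grouped by sample title. According to the methods, chromatin was cut with micrococcal nuclease and precipitated with Drosophila chromatin as a spike-in. Among tools the submitters' processing notes name MACS3, deepTools and BWA (0.7.17), and among builds dm3, GRCh38 and hg38. The methods describe narrow peaks called by MACS3 per library against input, with duplicates kept and an exclusion list applied. Whether spike-in scaling entered the calls is not stated.

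For each peak the authors deposited a fold over local background (a ratio), the −log10 p and −log10 q, a score derived from the −log10 p, and the summit position. Total reads are not in the lists. From the fold and −log10 p the whole-number pileup at each summit and its background were solved, taking the fold as (pileup + 1) / (background + 1) with p as the upper Poisson tail beyond the pileup. The solution fitted the −log10 p within 0.001 for all peaks of both H3K27ac lists and of the control MYOD list and for 99.9882% of those of the knockdown MYOD list.

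Only chromosomes 1 to 22, X and Y were used, which left out 1 peak in each H3K27ac list, and no peak ended beyond its hg38 chromosome. The TSS was that of the GENCODE release 44 canonical transcript, the nearest one naming the gene. Overlap meant at least 1 bp. Shared promoter peaks were knockdown promoter peaks overlapped by a control peak and by no MYOD peak. Shared promoters were genes with such a peak and no member. Sequence was read from hg38 with pysam. Shares carry Wilson and their differences Newcombe 95% intervals, which cover counting error only. The member rule, the intervals and the pileup solution were tested on simulated data.

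The members and the 21 gene lists (511 entries) were chosen with earlier results of these data known. Genes were named by rule: the 15 unaccompanied and 10 accompanied genes with the highest-scoring members, the 5 widest members, 5 genes with most members, the 2 highest-scoring member genes of each list, 9 loci of the study and the peaks at the limits of the rule. Some genes that the rule names are not reported here. Further members of the lists and families and the CpG-poor promoters were named after their values were seen. Alternatives were other thresholds, lists of equal length, other windows, overlaps and TSS sets, and, added after seeing the data, the motif, CpG and opposite-strand shares within ranges of peak strength.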

Additional observations from a re-analysis of the deposited data

How the results depend on the processing

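The number of members, 3655 as reported, was between 2673 and 4367 when all lists were held to a −log10 p of 5, the window was 1 kb, a control peak within 500 bp also excluded, MYOD peaks were ignored or the TSSs of all protein-coding transcripts were used. It fell to 1371 (792 unaccompanied, 579 accompanied) for members at a −log10 p of 10 or more, fell to 1813 (1046 and 767) with H3K27ac lists of equal length, and was 5948 when only a reciprocal overlap of 50% excluded, with 3865 accompanied. Excluding members within 500 bp of a control peak left 595 accompanied ones. List genes with an unaccompanied member numbered 53 as reported and 21 at a −log10 p of 10 or more. The larger share of downstream summits at unaccompanied than at shared peaks, 5.09 points, was 1.53 with members and shared peaks alike at a −log10 p of 10 or more. It was 2.59 with lists of equal length, and the intervals of these 2 alternatives included 0. With the TSSs of all transcripts it was −0.12. Within promoters whose strongest peak had a −log10 p under 10 the difference between unaccompanied and shared promoters was −1.67 points for CpG-rich promoters, −1.85 for ETS, −1.52 for YY1, 2.001 for the GC box, 1.19 for CAGCTG and −1.13 for CTCGCGAG, and at 10 or more it was 0.837 for CAGCTG, −1.08 for CTCGCGAG and −0.992 for E2F, all with intervals that included 0. Smaller numbers of promoters in these ranges widen the intervals, and beyond that the cause was not tested. The CpG difference from shared promoters grew to −12.1 points with the TSSs of all transcripts. The CpG difference from unmarked promoters and the difference in opposite-strand neighbours kept their direction with intervals free of 0 under each alternative run for them. No paired analysis was possible because each group has 1 library, which also leaves no replicate to leave out. Depth is unknown, and weak members near the calling threshold are the least certain.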
